A study of Mus musculus with 12 samples.

Results

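The RNA-seq table of this study was used to compare bone marrow-derived macrophages (BMDMs) of 2 headings, LPS+ tlr4f/f-lysM-cre against the floxed control LPS+ tlr4f/f. The members are the columns under these headings in the deposited count table, 3 for each, or 6 of the 12 libraries of the series. BMDMs are macrophages grown in culture from marrow precursors with the growth factor M-CSF. Per the labels and methods, the cells came from C57BL/6 mice and were grown for 7 days with 50 ng/mL M-CSF. The LPS+ groups were then given 1 µg/mL lipopolysaccharide (LPS), a cell-wall component of Gram-negative bacteria, for 6 h, and the LPS- groups were not. The tlr4f/f cells carry loxP-flanked (floxed) alleles of Tlr4. The tlr4f/f-lysM-cre cells also carry the Cre recombinase under the lysM promoter, which is that of Lyz2, the gene of the myeloid lysozyme. Cre in this allele sits in the Lyz2 gene itself, so that its effect is limited to cells that use Lyz2, and deletion need not be complete in every cell. The sources used here do not say whether the 3 libraries of a group came from separate mice or cultures, so that all p-values measure the spread between these libraries, which may be technical. In bulk RNA, fewer cells that express a gene and less of its RNA per cell cannot be told apart.

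Every result below has 2 readings, because the counts of Tlr4, Lyz2 and Il1b point to an exchange of 2 of the 4 headings. Tlr4 (chr4:66827551-66846581, mm10) had 1484, 1086 and 1412 reads in the LPS+ tlr4f/f libraries and 1191, 891 and 1117 in the LPS+ tlr4f/f-lysM-cre libraries, with a log2 fold change of -0.12 (SE 0.090, adjusted p = 0.28). In the LPS- groups it had 4486, 9136 and 6449 reads under the tlr4f/f heading and 4367, 3041 and 3739 under the tlr4f/f-lysM-cre heading. Thus the groups headed with the 2 genotypes did not separate by Tlr4 under either treatment heading, while both LPS+ groups lay below both LPS- groups. Lyz2 (chr10:117277541-117282272) was also lower in both LPS+ groups than in both LPS- groups, and unlike Tlr4 it differed between the LPS+ groups. It had 494, 560 and 623 reads in the LPS+ tlr4f/f libraries and 3272, 2127 and 2369 in the LPS+ tlr4f/f-lysM-cre libraries, against 383956, 591201 and 1244818 in the LPS- tlr4f/f libraries and 221787, 303431 and 235201 in the LPS- tlr4f/f-lysM-cre libraries. Which part of Tlr4 the counted transcript covers relative to the floxed exon was not determined.

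Il1b, which encodes the inflammatory cytokine interleukin 1β and is classically induced by LPS, was the third such gene. It had 128, 140 and 195 reads in the LPS+ tlr4f/f libraries, 405, 256 and 4 in the LPS- tlr4f/f libraries, and 306385, 52432 and 90388 in the LPS- tlr4f/f-lysM-cre libraries. Read as headed, the comparison is of the 2 genotypes under LPS. If the heading LPS- tlr4f/f-lysM-cre was exchanged with that of LPS+ tlr4f/f, to which the counts of Tlr4, Lyz2 and Il1b point, the same values compare LPS with no LPS in tlr4f/f-lysM-cre BMDMs, that is, the LPS response left after deletion of Tlr4 by lysM-Cre. No label settles which reading holds. The values, tests and directions are the same under both, and the groups are named here by their headings, shortened to LPS+ cre and LPS+ f/f. A gene called higher was higher in the LPS+ cre libraries. The plot of 6 genes by library shows the 4 groups side by side.

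**Figure D1:**
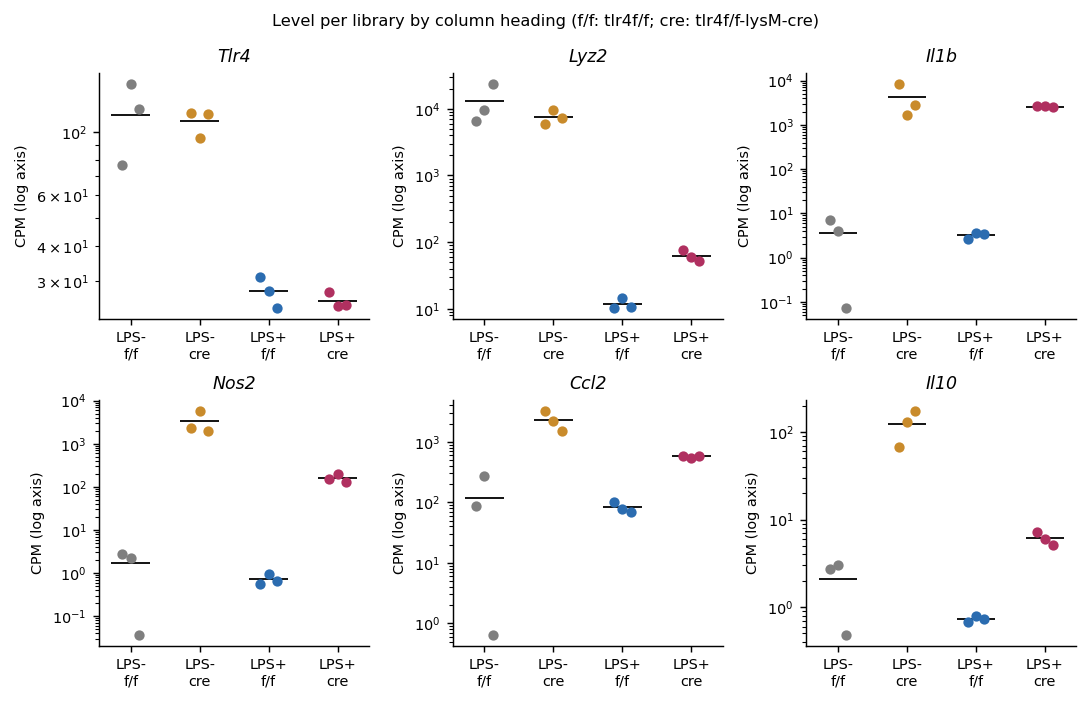
Normalised counts (CPM, log axis) of Tlr4, Lyz2, Il1b, Nos2, Ccl2 and Il10 in each of the 12 libraries, grouped by the deposited heading, with bars at the group means (n = 3). Tlr4 and Lyz2 were lower in both LPS+ groups than in both LPS- groups, while Il1b and Nos2 were high in the libraries of both tlr4f/f-lysM-cre headings.

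Tlr4 is the receptor for LPS. It binds LPS together with Ly96 (MD-2) and Cd14 and signals through an arm with the adaptors Myd88 and Tirap, which leads to NF-kB and inflammatory cytokines, and an arm with Ticam1 (TRIF) and Ticam2, which leads to interferon β and, through its receptor, to Stat2 and the antiviral genes. LPS preparations that hold lipoproteins can also be sensed by Tlr2, and LPS in the cytosol by Casp4 (caspase-11).

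The 6 libraries held 33577087 to 48504453 reads in the LPS+ f/f group and 38274326 to 46618510 in the LPS+ cre group. These totals are over the 1 transcript row kept for each gene. Levels are given as CPM, which are reads scaled to the library total. Pearson's r of log2 CPM between replicates was 0.9899 to 0.992, and that between the groups 0.9045 to 0.9167. Replicates varied by 8.52% (LPS+ f/f) and 8.73% (LPS+ cre) as a biological coefficient of variation, against 37.4% and 35% in the LPS- groups. In both LPS+ groups replicates 1 and 2 were closest, with a chi-square per degree of freedom of 9.27 (cre) and 9.35 (f/f) between their counts, against 17.8 to 20.8 for the pairs with replicate 3, and results that change without a library are given with and without it. The LPS- tlr4f/f replicate 3 had lower counts of Il1b, Nos2 and Ccl2 than the other two of its group (4, 2 and 35 reads). Of the 10 macrophage markers, Adgre1 (F4/80), Csf1r, Itgam and Cd68 had at least 22177 reads in each of the 6 libraries. Lyz2, another of the 10, had only 494 to 3272 reads in them.

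Of 14540 genes tested, 1572 (10.8%) were higher and 1589 (10.9%) were lower in the LPS+ cre libraries as differentially expressed genes (DEGs), for which the fold had to exceed 2 at an adjusted p below 0.01 (edgeR quasi-likelihood test, Benjamini-Hochberg over all genes tested). The median log2 fold change of all genes tested was -0.02. The 2 directions had like counts but differed in size. Higher by over 4-fold were 855 genes and lower 562, higher by over 16-fold 270 and lower 68, and higher by over 64-fold 95 and lower 10. The genes called higher held 24.3% ± 0.356 (SD, n = 3) of all CPM in the LPS+ cre libraries and 6.78% ± 0.148 in the LPS+ f/f libraries. Those called lower held 1.81% ± 0.0952 and 6.45% ± 0.135. The 2 groups did not overlap for any of the 3161 DEGs, nor for 67.4% of all genes tested. In a fit of all 12 libraries, whose LPS- groups varied more, 1187 genes were higher and 858 lower, and 17 of the 132 genes chosen for naming lost the call with adjusted p of 0.0127 to 0.337, namely Ccl2, Adam8, Plau, Mfsd12, Tnfsf14, Il16, Cxcl14, Hpgd, Alox5, Ptgs1, Atp6v0d2, Marco, Itgb3, Fads2, Cenpf, Ccnd2 and Cdkn1a.

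**Figure D2:**
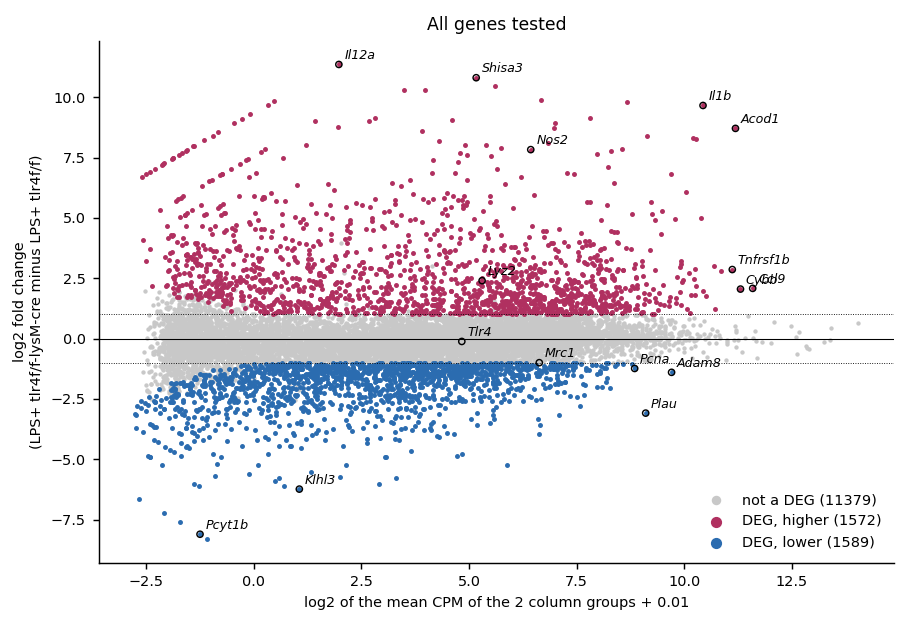
Mean level (log2 CPM over the 6 LPS+ libraries) on the x axis against the log2 fold change, LPS+ tlr4f/f-lysM-cre minus LPS+ tlr4f/f, on the y axis, 1 point for each of 14540 genes tested, with DEGs in colour. The 1572 genes called higher reached further from 0 than the 1589 called lower.

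The genes with the largest fold had few or no reads in the LPS+ f/f libraries. Il12a, which encodes the p35 chain of interleukin 12, had no read in any LPS+ f/f library and 246, 346 and 309 in the LPS+ cre libraries, at least 115-fold higher against a floor of 3 reads per library, which covers counting error only. Il12b, the p40 chain, had 2, 3 and 4 reads against 4295, 4497 and 2358 (log2 fold change 10.46, SE 0.743, adjusted p = 0.000243). Shisa3, a modulator of Wnt and FGF signalling, had 1, 2 and 2 reads against 3016, 2848 and 2427, and Lad1, an anchoring-filament protein of epithelia, 1, 0 and 2 against 1330, 1123 and 1196. By the same floor Shisa3 was at least 1050-fold, Lad1 at least 460-fold and Zfp811, a zinc-finger gene, at least 331-fold higher. In all, 91 of the genes called higher were at or under the floor in every LPS+ f/f library, and 59 of those called lower in every LPS+ cre library. Among the latter, Pcyt1b, an enzyme of phosphatidylcholine synthesis, had 44, 29 and 37 reads against none (at least 10.6-fold lower), and Wwc1 (KIBRA), a regulator of the Hippo pathway, 15, 22 and 23 against none (at least 5.84-fold lower). LOC102632465 and 4930556H04Rik were likewise without a read in the LPS+ cre libraries. Klhl3, an adaptor of ubiquitin ligases, had 200, 142 and 213 reads against 2, 0 and 4.

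**Figure D3:**
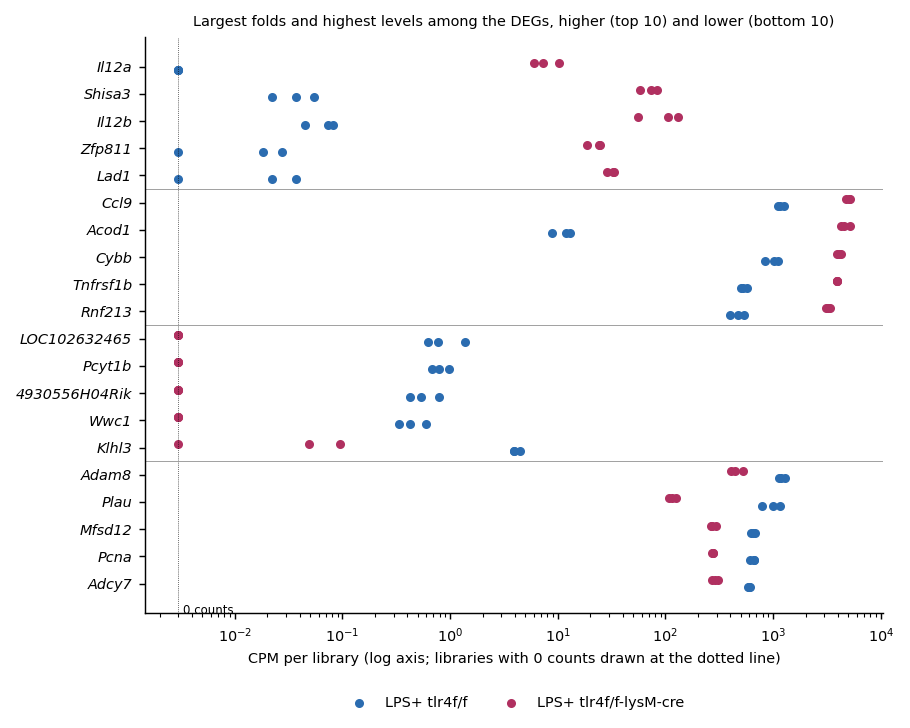
CPM (log axis) of 20 DEGs in each of the 6 LPS+ libraries, coloured by heading, with libraries at 0 reads drawn on the dotted line. The upper 10 genes, among them Il12a, Shisa3 and Acod1, were higher and the lower 10, among them Klhl3, Plau and Pcna, were lower in the LPS+ cre libraries, with no overlap between the groups.

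The cytokine list had 33 of 35 genes tested, of which 21 were higher and 4 lower. The counts of this and later lists stand against 10.8% higher and 10.9% lower of all genes tested. The median log2 fold change of the cytokine list was 2.89 (2.83 with genes at the floor set to their bound). Il1b had 113136, 97411 and 112463 reads in the LPS+ cre libraries (2766 ± 96.2 CPM against 3.43 ± 0.499, log2 fold change 9.66, SE 0.106, adjusted p = 2.15e-14). Il6, which drives the acute-phase response, had 6, 13 and 10 reads in the LPS+ f/f libraries and 6958, 8982 and 7471 in the LPS+ cre libraries (log2 fold change 9.87, adjusted p = 8.12e-06). Tnf had 1631, 1091 and 1715 against 44485, 48038 and 44654. All 3 cytokines thus had readable counts in the lower group and no overlap, and Tnf rose least, by 36.3-fold. The regulatory cytokine Il10 rose by 8.3-fold from 32, 31 and 42 to 312, 216 and 228 reads. Il1rn, the natural antagonist of the interleukin 1 receptor, rose by 4.37-fold. The colony-stimulating factors rose together, Csf1 by 2.83, Csf2 by 6.33 and Csf3 by 8.17 on the log2 scale, as did Il27, Il18 and Il23a. Ifnb1, the interferon β gene, had no read in the LPS+ f/f libraries and 13, 17 and 23 in the LPS+ cre libraries (at least 6.67-fold). The 4 members that fell were Vegfa, the vascular growth factor (4163, 3337 and 5505 to 661, 447 and 872 reads), Tnfsf14 (LIGHT), Il16 and Tnfsf13b (BAFF). Members without a call included Mif, Tgfb1, Igf1 and Spp1, with log2 fold changes of 0.15, 0.31, -0.33 and -0.30. With at least 10 reads required in every library, 13 cytokines were called higher, and in the fit of all 12 libraries 1 was called lower.

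Chemokines recruit leukocytes, and 20 of the 24 in the list were higher and 1 was lower (median log2 fold change 4.57, or 4.36 with genes at the floor at their bound). Their summed level was 15307 ± 1014 CPM in the LPS+ cre libraries and 2331 ± 314 in the LPS+ f/f libraries. The neutrophil attractants led, with Cxcl3 at 29, 39 and 54 reads against 30058, 32543 and 32237 (log2 fold change 9.82), Cxcl1 at 31, 13 and 25 against 11095, 8634 and 9931 (8.95) and Cxcl2 at 348, 263 and 375 against 81911, 99256 and 88485 (8.33). The ligands of Cxcr3 on T cells, Cxcl9, Cxcl10 and Cxcl11, rose as well. Cxcl10 had 140, 138 and 161 reads against 23645, 25104 and 39568, and Cxcl11 none against 24, 32 and 63 (at least 14.8-fold). The monocyte attractant Ccl2 (MCP-1), which the study followed in kidney, had 4749, 3036 and 4007 reads against 25350, 19480 and 26492 (607 ± 30.5 against 87.7 ± 16.8 CPM, log2 fold change 2.79, SE 0.138, adjusted p = 1.69e-06). In the fit of all 12 libraries the adjusted p of Ccl2 was 0.103, 13 chemokines were called higher and none lower. Ccl9 rose by 4.22-fold. Ccl3 and Ccl5 rose by 31.5-fold and 87.9-fold. Cxcl14 was the member that fell (log2 fold change -1.14), and Ccl6, Ccl8 and Cxcl12 had no call, with log2 fold changes of 0.11, 1.82 and 0.25.

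Among 39 cytokine and chemokine receptors tested, 17 were higher and 7 lower (median log2 fold change 0.83). Fas, the death receptor, rose from 79, 75 and 93 to 1800, 1628 and 1962 reads. Tnfrsf1b (TNF receptor 2) rose by 7.26-fold, Csf3r, the G-CSF receptor, by 7.76-fold, and Ccrl2 and Il4ra by 3.70 and 2.20 on the log2 scale. The receptors that fell most were for chemokines. Cxcr4, the receptor of Cxcl12 that retains leukocytes in marrow, fell from 2625, 2236 and 2421 to 92, 54 and 87 reads (log2 fold change -4.78, SE 0.167, adjusted p = 1.47e-08). Cxcr3 had 70, 67 and 135 reads against 2, 6 and 4, and Il1rl1, the receptor of interleukin 33, fell by 7.24-fold. Ccr2, the receptor of Ccl2, fell by 1.62 on the log2 scale, so that ligand and receptor changed in opposite directions. Csf1r, the receptor of the M-CSF in the medium, was not a DEG (log2 fold change 0.38).

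The pattern recognition list covers the Toll-like receptors, their adaptors and cytosolic sensors, and 25 of its 40 tested members were higher and none lower (median log2 fold change 1.32). Cd14 and Ly96, the partners of Tlr4 at the surface, rose while Tlr4 itself had no call. Cd14 had 25591, 21574 and 28656 reads against 90427, 78181 and 88543 (log2 fold change 1.97), and Ly96 a log2 fold change of 1.23. Of the adaptors, Myd88 rose by 2.91-fold, Ticam1 by 2.1-fold and Ticam2 by 2.26-fold, and Tirap, with a log2 fold change of 0.98, was not a DEG. Tlr2, the receptor of bacterial lipoproteins, rose from 1274, 1035 and 1317 to 23461, 21114 and 25234 reads (log2 fold change 4.47, SE 0.0760, adjusted p = 7.76e-13). Tlr1, Tlr3, Tlr6 and Tlr8 rose by 2.03, 2.32, 1.86 and 1.39 on the log2 scale, and Tlr7, Tlr9 and Tlr13 had no call. Clec4e (Mincle), a C-type lectin that senses mycobacterial glycolipid, rose most, from 696, 495 and 785 to 61123, 64828 and 65616 reads. The sensors of peptidoglycan Nod1 and Nod2, of viral RNA Ddx58 and Ifih1, of DNA Zbp1 and Aim2, and Nlrp3, the core of an inflammasome, were also called higher, whereas Tmem173 (STING) had a log2 fold change of -0.89.

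NF-kB subunits and the inhibitors that NF-kB itself induces had 28 higher and 2 lower members of 40 (median log2 fold change 2.28). Nfkbia (IκBα), which holds NF-kB in the cytosol, rose from 2882, 2229 and 3240 to 34006, 28735 and 31942 reads (log2 fold change 3.72, SE 0.0651, adjusted p = 7.92e-13), and Tnfaip3 (A20), a ubiquitin-editing inhibitor, by 8.16-fold. Nfkbiz, a nuclear co-regulator, rose by 50.4-fold. The inhibitors of cytokine signalling Socs3 and Socs1 rose from 95, 125 and 114 to 20332, 16778 and 21587 reads and from 52, 65 and 47 to 2058, 2142 and 2428 reads. The 2 members that fell were the RNA decay factors Zfp36l1 (log2 fold change -2.04) and Zfp36l2 (-2.00). Without LPS+ cre replicate 3, Zfp36l1 was no longer a DEG (log2 fold change -2.08, adjusted p = 0.0116). Promoters of 3 of the called genes are shown because they hold the kB motif, GGGANTTNC on either strand, in the 250 bases before the transcription start (RefSeq, GRCm38.p6). They lie at chr12:55492648-55492897 on the minus strand for Nfkbia, chr17:35821463-35821712 on the plus strand for Ier3 and chr11:54962941-54963190 on the minus strand for Tnip1, and capitals mark the matches.
Nfkbia: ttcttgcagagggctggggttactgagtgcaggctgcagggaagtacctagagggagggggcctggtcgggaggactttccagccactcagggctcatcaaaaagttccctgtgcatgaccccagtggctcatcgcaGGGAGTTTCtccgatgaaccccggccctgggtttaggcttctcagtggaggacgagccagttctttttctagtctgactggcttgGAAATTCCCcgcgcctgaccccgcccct
Ier3: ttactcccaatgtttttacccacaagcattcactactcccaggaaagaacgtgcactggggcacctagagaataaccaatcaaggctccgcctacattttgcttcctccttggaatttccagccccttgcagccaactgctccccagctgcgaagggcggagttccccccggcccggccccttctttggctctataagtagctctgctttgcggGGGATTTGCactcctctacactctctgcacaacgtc
Tnip1: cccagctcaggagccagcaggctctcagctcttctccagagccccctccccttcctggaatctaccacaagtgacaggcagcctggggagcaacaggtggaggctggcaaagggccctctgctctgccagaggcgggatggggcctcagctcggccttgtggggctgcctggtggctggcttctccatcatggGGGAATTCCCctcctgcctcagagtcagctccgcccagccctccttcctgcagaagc
Read 5′ to 3′ in the direction of the gene, Nfkbia holds 2 matches, at 113 and 28 bases before the start, Ier3 1 match at 36, and Tnip1 2 matches at 57 and 56, which overlap on opposite strands of a near-palindrome. The motif was in 10 of the 33 list genes with a promoter in the table (30.3%) and in 3.54% of all 32851 promoter windows of the same length. A gene counted if any of its windows held the motif, so the share of genes and that of single windows are unlike measures. A match describes the letters only. Ier3 (log2 fold change 3.66) is an early response gene and Tnip1 (2.83) a partner of Tnfaip3.

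The study named 8 transcription factors by enrichment of their targets among its DEGs of these same libraries, not by their own RNA. Their direction is thus not independent evidence. Of these, 4 were higher and none lower. Nfkb1 (p105/p50) rose from 4092, 3539 and 4849 to 26864, 23811 and 27762 reads (log2 fold change 2.86), Irf1 by 5.04-fold and Stat3 by 2.12-fold. Jun and the pocket protein Rbl2 each had a log2 fold change of -0.70 (adjusted p = 2.08e-06 and 1.91e-07). Both were without overlap between the groups and missed only the fold criterion. Irf8 had 8648, 7535 and 15927 reads against 8797, 6972 and 15017, and Fos 4511, 3555 and 4907 against 3956, 2211 and 4848, so that neither separated the groups. Leaving out LPS+ cre replicate 2 turned the log2 fold change of Fos from -0.06 to 0.14, and leaving out LPS+ cre replicate 3 that of Irf8 from 0.16 to -0.13. Among 53 other transcription factors of macrophages, 19 were higher and 9 lower (median log2 fold change 0.41). Batf, Batf2 and Nr4a3 rose by 4.33, 3.49 and 3.76 on the log2 scale, and Cebpd and Maf by 10.4-fold and 5.38-fold. Pparg, the lipid-sensing nuclear receptor, fell from 2939, 2532 and 3181 to 554, 373 and 438 reads. Klf4 and Bhlhe40, which is linked to macrophage proliferation, fell by 5.68-fold and 6.02-fold.

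All 43 interferon-induced antiviral genes of the list were tested, and all 43 were higher (median log2 fold change 2.88). Their summed level was 22566 ± 1326 CPM in the LPS+ cre libraries and 3160 ± 271 in the LPS+ f/f libraries. Ifi205, a DNA-binding protein of the Ifi200 family, had 65, 64 and 63 reads against 5993, 5074 and 6088 (log2 fold change 6.68, SE 0.0982, adjusted p = 3.48e-13). Rsad2 (viperin), which blocks viral budding and RNA synthesis, had 1508, 1154 and 1431 against 70668, 68042 and 103787. Ifit1, which binds foreign RNA caps, rose by 50.1-fold, Mx1, an antiviral GTPase, by 51.1-fold, and Isg15, the ubiquitin-like modifier, by 16.6-fold. Their inducers Stat2 and Irf7 rose by 5.33-fold and 5.42-fold, with the few reads of Ifnb1 given above. The promoters of Ifi205 (chr1:174031756-174032005, minus strand), Rsad2 (chr12:26456453-26456702, minus strand) and Ifit1 (chr19:34640639-34640888, plus strand) are shown because they hold the core of an interferon response element, GAAANNGAA on either strand, in capitals.
Ifi205: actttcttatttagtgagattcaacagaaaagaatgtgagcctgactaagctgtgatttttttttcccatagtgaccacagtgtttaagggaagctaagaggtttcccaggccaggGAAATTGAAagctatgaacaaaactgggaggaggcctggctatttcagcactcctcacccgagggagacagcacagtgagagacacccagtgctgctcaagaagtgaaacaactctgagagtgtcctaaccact
Rsad2: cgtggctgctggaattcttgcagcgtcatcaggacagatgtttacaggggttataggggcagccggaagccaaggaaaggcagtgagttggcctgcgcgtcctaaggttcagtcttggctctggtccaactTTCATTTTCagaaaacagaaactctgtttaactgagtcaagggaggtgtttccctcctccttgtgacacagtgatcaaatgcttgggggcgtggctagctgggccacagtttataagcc
Ifit1: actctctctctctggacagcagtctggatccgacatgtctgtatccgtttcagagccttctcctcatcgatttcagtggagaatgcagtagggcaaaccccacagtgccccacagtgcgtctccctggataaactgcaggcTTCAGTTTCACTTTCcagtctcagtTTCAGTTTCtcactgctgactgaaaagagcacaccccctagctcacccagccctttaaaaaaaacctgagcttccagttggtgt
Ifi205 holds its match 134 and Rsad2 119 bases before the start, and Ifit1 holds 3, at 109, 103 and 84 bases, of which the first and second overlap. The motif was in 7.13% of all promoter windows. Its share over the list is void, since 34 of the 43 genes (79.1%) had a promoter in the table.

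Guanylate-binding proteins and immunity-related GTPases, which attack vacuoles of intracellular pathogens, had 17 of 18 tested members higher and none lower (median log2 fold change 4.83, or 4.61 with genes at the floor at their bound). Gbp5 rose from 103, 135 and 149 to 22790, 21872 and 28309 reads (log2 fold change 7.76), Gbp2 by 39.4-fold and Irgm1 by 5.51-fold. Gbp10 and Gbp2b had at most 1 read in any LPS+ f/f library and were at least 17.2-fold and 26.8-fold higher. These genes, and the Ifit, Slfn, Bcl2a1 and H2-Q families, have near-identical copies among which the counting could split reads, so that the value of 1 copy is less certain than that of its family.

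Antigen presentation genes were called higher in part. Of 23 class I and immunoproteasome genes, 13 were higher, none lower, and 23 had a log2 fold change above 0 (median 1.20). Nlrc5, the transactivator of class I, rose from 1963, 1570 and 1971 to 10784, 9210 and 11230 reads, Tap1, a peptide transporter, by 5.23-fold and H2-Q7 by 6.47-fold, while B2m and H2-K1 had log2 fold changes of 0.52 and 0.86 and no call. The interferon motif was in 4 of 20 class I genes with a promoter, with any window of a gene counted, and in 7.13% of all single windows. Of 26 class II and co-stimulatory genes, 11 were higher and 2 lower (median 1.17). The count was not split by kind, and none of the genes named next is a class II gene. Cd69, an early activation antigen, rose from 24, 32 and 24 to 8668, 9797 and 10706 reads and Cd40, the co-stimulatory receptor, from 173, 127 and 104 to 14811, 13872 and 11271. Cd86, Icosl and the inhibitory ligand Cd274 (PD-L1) rose by 8.89-fold, 20.9-fold and 15.3-fold. The inhibitory molecules Havcr2 (TIM-3) and Vsir (VISTA) fell by 5.64-fold and 2.94-fold.

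Enzymes of arginine, nitric oxide, itaconate and prostanoid metabolism had 12 higher and 4 lower members of 26 (median log2 fold change 1.14). Nos2, the inducible nitric oxide synthase, had 26, 38 and 38 reads in the LPS+ f/f libraries and 6566, 7400 and 5801 in the LPS+ cre libraries (0.773 ± 0.237 against 172 ± 41.0 CPM, log2 fold change 7.83, SE 0.309, adjusted p = 7.24e-06). Its arginine transporter Slc7a2, its cofactor enzyme Gch1 and the arginine-recycling Ass1 rose by 13.3-fold, 8.82-fold and 5.42-fold. Arg1, which competes for arginine, had at most 12 reads against at most 25 and no call. Acod1, which makes itaconate from a TCA cycle intermediate, rose from 530, 475 and 481 to 187249, 174621 and 179835 reads (log2 fold change 8.71). Ptgs2 (cyclooxygenase-2) rose from 298, 336 and 429 to 106783, 100857 and 76919 reads, while the constitutive Ptgs1, Alox5, which starts leukotriene synthesis, and Hpgd, which degrades prostaglandins, fell by 4.27-fold, 4.69-fold and 13.7-fold. In the fit of all 12 libraries no member of the list was called lower.

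Redox, iron and acute-phase genes had 17 higher and none lower of 35 (median log2 fold change 0.88). The acute-phase gene Saa3 rose from 111, 153 and 187 to 44143, 41532 and 44114 reads, and the iron-binding Lcn2 and the ferroxidase Cp by 160.0-fold and 95.5-fold. Slc7a11, the cystine importer, rose by 35.9-fold, Sod2, the mitochondrial superoxide dismutase, by 20.2-fold, Hmox1, which degrades haem, by 4.48-fold, its regulator Nfe2l2 (NRF2) by 2.48-fold, and Cybb, the core of the phagocyte oxidase, by 4.15-fold. The ferritin chains Fth1 and Ftl1 had log2 fold changes of 0.64 and -0.08 and no call. In central carbon metabolism the TCA cycle list had the median of all genes tested (-0.02). The glycolysis list lay above it, with a larger part called higher than the 10.8% of all genes tested. Of 21 glycolysis genes 5 were higher and 1 lower (median log2 fold change 0.19), among them Pfkfb3, Pfkl and Hk2, which rose by 3.15-fold, 2.83-fold and 2.29-fold, and the glucose transporter Slc2a1 by 2.27-fold, whereas Eno2 fell by 2.98-fold and Gapdh and Ldha had log2 fold changes of 0.22 and 0.08. Of 27 genes of the TCA cycle and its entry none was higher and 1 was lower (median -0.02). That gene was Pdk2, a kinase that inhibits pyruvate dehydrogenase (log2 fold change -1.60). Without LPS+ cre replicate 3, 2 genes were called lower in this list.

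Most DNA replication genes were called lower. Of 45 DNA replication genes 35 were lower and none higher, and all 45 had a log2 fold change below 0 (median -1.42, range -2.87 to -0.14). Mcm6, a subunit of the replicative helicase, fell from 7982, 5818 and 8818 to 1732, 1498 and 2063 reads (log2 fold change -1.88, SE 0.0678, adjusted p = 1.84e-10). Dtl, Exo1 and Cdc6 fell by 7.29-fold, 6.40-fold and 5.90-fold, and Pcna, the sliding clamp, from 29394, 24430 and 33407 to 10994, 9367 and 11687 reads. In the G1 list, 11 of 37 were lower and 2 higher (median -0.49). Ccnd1 (cyclin D1), a target of growth factor signalling, fell from 12136, 8658 and 12134 to 1182, 886 and 1147 reads, and the factors E2f2 and E2f7 by 12.5-fold and 9.29-fold. The 2 that rose were Ccnd2 (cyclin D2) and Cdkn1a (p21), the inhibitor of cyclin-dependent kinases, at 10589, 9021 and 10558 against 33215, 32908 and 31680 reads. Ccnd2 rested on each of several libraries. Its adjusted p was 0.00344 with all 6, and 0.0179 without LPS+ f/f replicate 2, 0.0171, 0.0177 and 0.0106 without LPS+ cre replicates 1, 2 and 3. With LPS+ f/f replicate 2 or LPS+ cre replicate 1 or 2 left out, 1 gene of the list was called higher.

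Of 42 mitosis genes 29 were lower and 1 higher (median log2 fold change -1.25). Kif23, a motor of cytokinesis, fell from 2803, 2150 and 3832 to 495, 424 and 736 reads, Cdc25b, the phosphatase of entry into mitosis, by 3.67-fold and Ccna2 (cyclin A2) by 2.87-fold. Top2a fell by 2.03-fold, and Mki67, the proliferation marker, had 23360, 17961 and 31641 reads against 9977, 9477 and 13271, a log2 fold change of -0.93 that missed the fold criterion. Pttg1 (securin) rose by 2.72-fold, against the rest of the list. The count of mitosis genes depended on the fit, with 19 called lower without LPS+ cre replicate 2 and 2 in the fit of all 12 libraries. Cenpf, a kinetochore protein (log2 fold change -2.04, adjusted p = 0.00188), lost its call without LPS+ cre replicate 2 (-1.99, 0.0148). Kif11 and Kif2c, motors of the spindle, are shown with the core of the cell cycle homology region, TTTGAA on either strand, in capitals, at chr19:37376132-37376381 (plus strand) and chr4:117178773-117179022 (minus strand).
Kif11: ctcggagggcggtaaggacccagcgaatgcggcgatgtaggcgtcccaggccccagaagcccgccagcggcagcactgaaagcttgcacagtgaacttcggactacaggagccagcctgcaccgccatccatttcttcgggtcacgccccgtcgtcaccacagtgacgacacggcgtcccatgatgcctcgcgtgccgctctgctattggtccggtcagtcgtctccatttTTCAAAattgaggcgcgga
Kif2c: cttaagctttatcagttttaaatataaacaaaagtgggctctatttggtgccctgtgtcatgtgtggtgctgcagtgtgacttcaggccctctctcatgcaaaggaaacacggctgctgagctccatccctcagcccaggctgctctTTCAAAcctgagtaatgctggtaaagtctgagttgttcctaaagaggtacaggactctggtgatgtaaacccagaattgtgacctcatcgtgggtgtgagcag
The matches start 19 and 103 bases before the start. TTTGAA was in 11 of the 34 list genes with a promoter (32.4%) and in 16% of all windows. Here too the share of genes counts any window of a gene and is unlike the share of single windows. CCAAT was in 25 of 34 mitosis genes (73.5%), 24 of 36 DNA replication genes (66.7%) and 33.8% of all windows. High shares were not particular to these lists. It was also in 15 of 20 class I genes (75.0%) and 21 of 28 stress response genes (75.0%). The lowest share of a list that was not void was 28.6%, for glycolysis. Kif11 and Kif2c had log2 fold changes of -1.51 and -1.44.

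**Figure D4:**
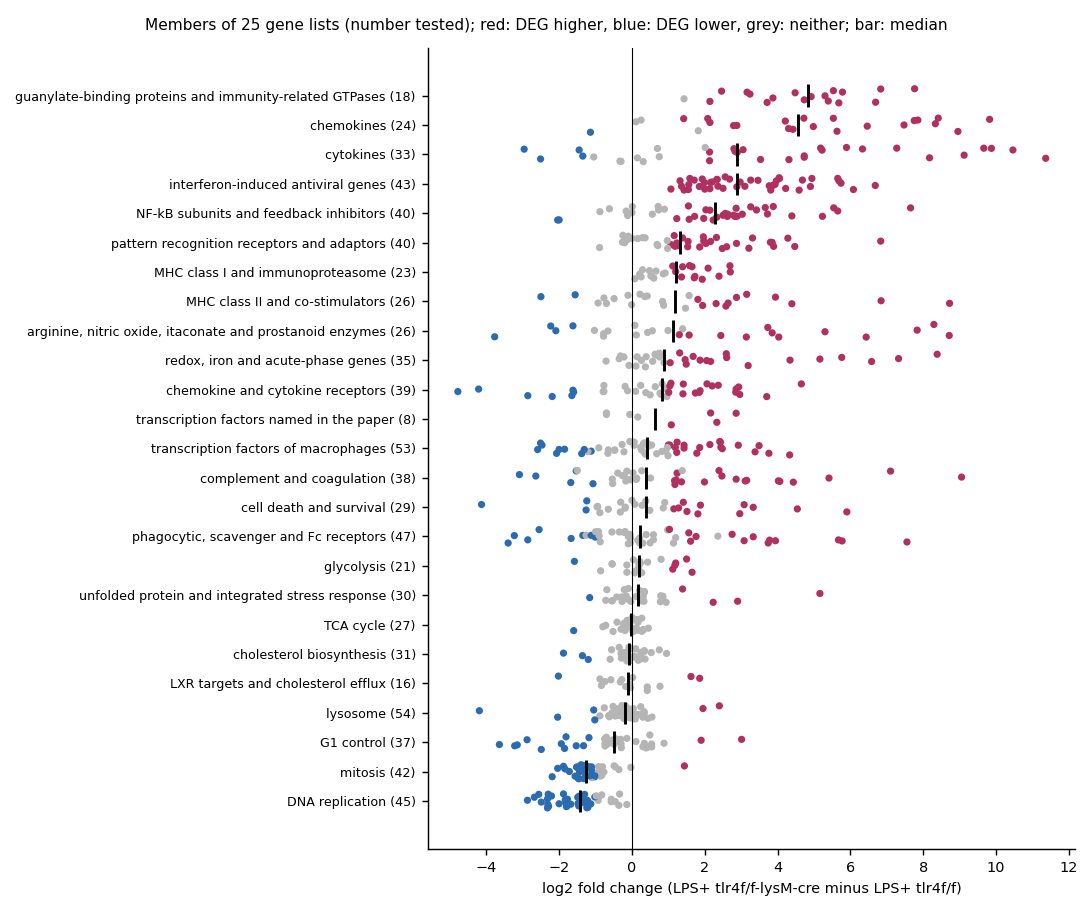
Log2 fold change, LPS+ tlr4f/f-lysM-cre minus LPS+ tlr4f/f, of the tested members of 25 gene lists, 1 point for each gene, with a bar at the median of each list. The interferon list lies wholly above 0 (median 2.88) and the DNA replication list wholly below 0 (median -1.42), while the TCA cycle list is centred at -0.02.

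Lysosome genes, which serve the digestion of engulfed material, had 2 higher and 4 lower members of 54, and 48 had no call (median log2 fold change -0.20). Their summed level was 43634 ± 1974 CPM in the LPS+ cre libraries against 51450 ± 3638. Ctsd and Ctsb, 2 main cathepsins, had log2 fold changes of -0.41 and -0.15. The members that fell were Sgsh, a sulfatase of heparan sulfate (843, 764 and 1055 to 35, 26 and 66 reads), Atp6v0d2, a subunit of the proton pump, Manba, and Tfeb, the transcription factor of lysosome genes (log2 fold change -1.02). Lyz2 and Ctsc (cathepsin C) rose, by 5.28-fold and 3.87-fold. Ctsc lost its call without LPS+ f/f replicate 1 (adjusted p = 0.0137) and without LPS+ cre replicate 1 (0.0119) or 2 (0.0104), from 0.0023 with all 6, so that 1 lysosome gene was then called higher. In the fit of all 12 libraries 2 lysosome genes were called lower.

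Phagocytic, scavenger and Fc receptors were split, with 13 higher and 8 lower of 47 tested (median log2 fold change 0.21). Olr1 (LOX-1), a receptor of oxidised lipoprotein, rose from 17, 7 and 42 to 3090, 3117 and 4434 reads, the scavenger receptor Marco from 29, 29 and 27 to 1249, 1229 and 1280 and the inhibitory lectin Siglece by 54.6-fold. Fcgr2b, the inhibitory Fc receptor, rose by 3.94 on the log2 scale, while the activating Fcgr3 had -0.87 without a call. Adgre1 (F4/80) rose by 3.38-fold. Cd300lf, Clec10a and the integrin chain Itgb3 fell by 10.5-fold, 9.39-fold and 7.25-fold, and Gas6, the bridge to apoptotic cells, by 3.18-fold. Mrc1 (CD206), which the study used as a marker of alternative activation, had 5818, 5717 and 5964 reads against 2536, 2755 and 2342. The groups did not overlap, but at a log2 fold change of -1.0 (SE 0.198, adjusted p = 0.00787) it did not exceed the fold criterion. It passed without LPS+ f/f replicate 3 (-1.13) and without LPS+ cre replicate 2 (-1.16), and by a narrow margin with the replicate block (-1.0, adjusted p = 3.76e-12) and with the second transcript row (-1.0, adjusted p = 0.0076). In the fit of all 12 libraries 6 receptors of the list were called higher.

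Lipid genes changed little as groups, against 10.8% higher and 10.9% lower of all genes tested. Of 16 LXR target and cholesterol efflux genes 2 were higher and 1 lower (median log2 fold change -0.11). Nr1h3 (LXRα) rose from 714, 513 and 895 to 2546, 1840 and 2231 reads and the cholesterol exporter Abca1 by 3.08-fold, whereas Nceh1, an ester hydrolase, fell by 4.05-fold. Without LPS+ cre replicate 3, 2 genes of this list were called lower. Of 31 genes of the cholesterol biosynthesis list none was higher and 3 were lower (median -0.08), namely the fatty acid desaturases Fads1 (log2 fold change -1.88) and Fads2 (-1.36) and the sterol reductase Dhcr7 (-1.20). Without LPS+ f/f replicate 3, 1 gene of this list was called higher.

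Complement, coagulation and matrix-degrading genes had 17 higher and 5 lower of 38 tested (median log2 fold change 0.39). The complement genes C3 and Cfb, which start the alternative pathway, rose from 1488, 1112 and 1536 to 30340, 22318 and 24857 reads and by 42.5-fold. The 3 C1q chains C1qa, C1qb and C1qc had log2 fold changes of 0.03, -0.04 and -0.14. Serpinb2 (PAI-2), an inhibitor of urokinase, rose from 1, 3 and 8 to 2516, 1421 and 1783 reads, and Plau (urokinase) fell from 51834, 36382 and 43275 to 5088, 3637 and 4886 reads. Enzyme and inhibitor thus moved in opposite directions. The metalloproteinases Mmp14, Mmp13 and Mmp9 rose by 137.0-fold, 16.2-fold and 8.63-fold. C5ar2, a receptor of C5a, and the anticoagulant receptor Thbd fell by 6.25-fold and 3.21-fold. In the fit of all 12 libraries 7 genes were called higher and 2 lower.

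Cell death and survival genes had 11 higher and 3 lower of 29 (median log2 fold change 0.38). The survival genes Bcl2a1a, Bcl2a1d and Bcl2a1b rose by 59.6-fold, 23.3-fold and 10.1-fold, and Cflar, the inhibitor of caspase-8, by 8.47-fold, while Bcl2 fell by 2.39-fold. Casp4 (caspase-11), Casp1 and Gsdmd, which act in pyroptosis, rose by 2.96, 1.81 and 1.28 on the log2 scale, and Nlrp1b, an inflammasome sensor, fell from 738, 462 and 762 to 21, 46 and 28 reads. The unfolded protein and integrated stress response had 4 higher and 1 lower of 30 (median 0.17). Nupr1 and Herpud1 rose by 7.46-fold and 4.70-fold, and Atf4, Xbp1 and Hspa5 had log2 fold changes of 0.34, 0.33 and 0.78 without a call. Sesn1, a stress-induced inhibitor of growth signalling, fell by 2.23-fold.

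Named by their CPM, which is not per transcript length, were also genes outside these lists. Adam8, a cell-surface protease, fell from 58025, 43537 and 61911 to 21468, 13892 and 18768 reads, and Mfsd12, a transporter of lysosomes, by 1.23 on the log2 scale. Adcy7, an adenylyl cyclase, fell from 27007, 21454 and 32639 to 11844, 9300 and 12915 reads (log2 fold change -1.04), and missed the fold criterion without LPS+ cre replicate 2 (-1.0). Among those called higher, Rnf213, a large ubiquitin ligase with antimicrobial functions, rose from 23716, 17211 and 21606 to 127089, 111078 and 142363 reads.

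Markers of other cells that a marrow culture can hold moved in part with the groups. The 10 macrophage markers summed to 9158 to 9316 CPM in the LPS+ cre and 5320 to 5638 CPM in the LPS+ f/f libraries. Of these 10, 3 were called higher (Cd14, Adgre1 and Lyz2) and 1 lower. Their log2 fold changes ran from -2.07 to 2.40 (median 0.71), with 7 above and 3 below 0. The 12 neutrophil markers summed to 123 to 134 against 27.8 to 32.0 CPM, with 3 called higher and 2 lower of 8 tested. Most of this sum was from Csf3r, while Ly6g and Retnlg had no read in any of the 6 libraries. The 8 fibroblast and stromal markers summed to 55.7 to 72.2 against 27.8 to 35.7 CPM, with Pdgfrb as the only DEG (24, 29 and 32 against 598, 760 and 698 reads). The 8 dendritic cell markers summed to 3.61 to 4.22 against 0.607 to 1.30 CPM, with Ccr7 and Xcr1 called higher of 4 tested. The 9 mast cell and basophil markers summed to 1.05 to 1.85 against 3.47 to 3.64 CPM, with Gata2 lower of 2 tested and Fcer1a, Mcpt4 and Tpsb2 without a read. The 6 B lymphocyte (0.636 to 0.831 against 0.574 to 0.791 CPM), 8 T and NK lymphocyte (8.04 to 10.0 against 7.30 to 9.73 CPM) and 7 erythroid markers (2.79 to 3.67 against 2.51 to 2.72 CPM) held no DEG. The part of these cells in the results above was not tested.

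The other 6 libraries give the contrast LPS- tlr4f/f-lysM-cre minus LPS- tlr4f/f, which shares no library with the one above. As headed it compares the genotypes without LPS, and with the headings exchanged it is the LPS response of tlr4f/f BMDMs. Of 14635 genes tested there, 1354 (9.25%) were higher and 1143 (7.81%) lower. Of the genes called higher in the LPS+ contrast and tested in both, 1500 of 1534 (97.8%) had the same sign, and of those called lower 1444 of 1502 (96.1%), against 81.5% of all 13912 genes tested in both, whose log2 fold changes had a Pearson's r of 0.866 across genes, which are not independent replicates. DEGs higher in both numbered 899, which is 57.2% of those of the LPS+ and 66.4% of those of the LPS- contrast. DEGs lower in both numbered 575, or 36.2% and 50.3%. None of the higher and 2 of the lower DEGs were called in the opposite direction. Beside one another, the median log2 fold changes in the LPS+ and LPS- contrasts were 2.89 and 4.22 for cytokines, 4.42 and 5.65 for chemokines, 2.28 and 3.14 for NF-kB genes, 2.88 and 2.91 for interferon-induced genes, -1.42 and -1.99 for DNA replication and -1.25 and -1.97 for mitosis, over the genes tested in both.

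The difference between the contrasts was tested in a fit of all 12 libraries as LPS+ minus LPS- contrast. It was called, at a difference above 2-fold and adjusted p below 0.01, higher for 104 genes (0.659%) and lower for 60 (0.38%) of 15775. With DESeq2's (RLE) size factors in place of TMM in edgeR the split was 64 higher and 80 lower. Of 162 called genes that were tested in both contrasts, 124 had the same sign and a smaller change in the LPS+ contrast, 2 the same sign and a larger change, and 36 opposite signs. The counts rested on each of the 6 LPS+ libraries, with 4 to 9 higher and 6 to 14 lower when any 1 of them was left out. Il1b, Nos2, Il10 and Ccl2 had no called difference. Il1b changed by 9.66 and 10.15 on the log2 scale in the 2 contrasts (adjusted p of the difference 0.856), Nos2 by 7.83 and 10.92 (0.137), Il10 by 3.05 and 5.87 (0.0547), and the values of Ccl2 were 2.79 and 4.26 (0.628). The interval of these differences is wide, at an SE of 1.28 for Il1b and 1.17 for Nos2, so that like sizes are not shown.

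Of the 18 list genes with a called difference, Tlr3 and Sesn1 kept the call in every one of 18 alternative settings. Tlr3, the endosomal sensor of double-stranded RNA, had 600, 425 and 656 reads in the LPS+ f/f libraries and 2314, 2097 and 2819 in the LPS+ cre libraries, and 976, 1064 and 814 in the LPS- tlr4f/f and 8361, 8406 and 7275 in the LPS- tlr4f/f-lysM-cre libraries. It was thus higher under the cre heading in both, by 2.32 and 3.85 on the log2 scale, with a difference of -1.54 (SE 0.147, adjusted p = 0.00135). Sesn1 was lower in both, with log2 fold changes of -1.16 and -4.43 and a difference of 3.28 (SE 0.224, adjusted p = 0.000283). Its reads were 3383, 3109 and 5009 against 1549, 1249 and 1641 in the LPS+ and 3639, 3911 and 3820 against 95, 83 and 128 in the LPS- libraries. Klf4 differed in kind, with a log2 fold change of -2.51 in the LPS+ and 0.13 in the LPS- contrast (difference -2.64, adjusted p = 0.00244). Pfkfb3 rose by 1.65 and 5.17 (difference -3.53), Stat3 by 1.08 and 2.42 (-1.34), Junb, a subunit of AP-1, by 1.04 and 2.59 (-1.56), Il15ra by 2.93 and 5.01 (-2.07) and the phosphatase Dusp16 by 2.56 and 3.99 (-1.44). The replication genes Mcm3, Pold1 and Gmnn fell by 1.49, 1.39 and 2.29 in the LPS+ and 2.91, 2.56 and 3.62 in the LPS- contrast (differences 1.41, 1.16 and 1.32). Bcl2 fell by 1.26 and 3.96 (2.71) and Cd300lb by 1.01 and 3.01 (1.99). For Scd2 the values were -0.74 and -3.33 (2.59), for Rbl1 -0.39 and 0.99 (-1.40), for Sesn3 0.12 and 2.35 (-2.23), for Tnfsf9 0.75 and 2.84 (-2.10) and for Tnip2 -0.12 and 1.08 (-1.21). These 16 genes lost the call in 5 to 14 of the settings, most of them without a single LPS+ library.

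**Figure D5:**
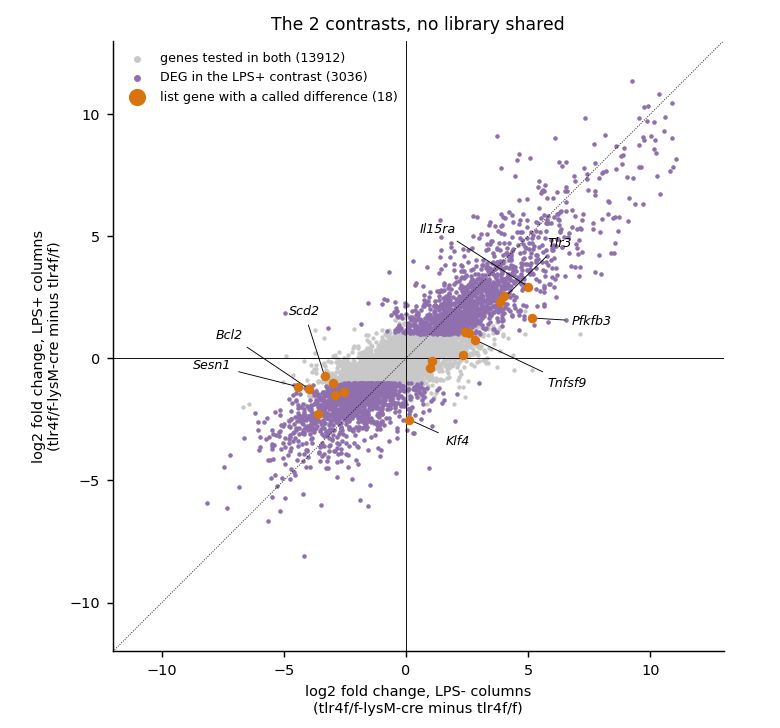
Log2 fold change in the LPS- contrast (x axis) against that in the LPS+ contrast (y axis), each tlr4f/f-lysM-cre minus tlr4f/f heading, 1 point for each of 13912 genes tested in both. The 18 list genes with a called difference are in orange, and Sesn1, Pfkfb3 and Bcl2 lie closer to 0 on the y than on the x axis.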

How the data were processed

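RNA from 12 BMDM libraries (4 groups of 3) was sequenced by the study. Per the labels and methods, the authors trimmed reads with Trimmomatic 0.36, used HISAT2 for alignment to mm10 and HTSeq for counting, and deposited raw counts for 115140 transcript rows. Whether counting used strand was not given in the sources used here, and the labels name both rRNA removal and a poly(A) library. Since reads can be counted for several transcripts of a gene, the row with the highest total over the 12 libraries was kept for each of 43131 genes, and Ensembl IDs were named from the tables given. Counts were filtered (filterByExpr), scaled by TMM and tested with edgeR 4.0.16 (R 4.3.3, robust quasi-likelihood), on the 6 LPS+ libraries alone for the LPS+ contrast. DEG criteria, a fold above 2 and an adjusted p below 0.01, follow the study. The floor was 3 reads per library, and floors cover counting error only, since reads had no molecular identifiers. Scripts were tested on simulated data.

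The members and the 25 gene lists were chosen with earlier results of these data known. Named were the study's genes, the 5 DEGs in each direction with the largest fold and the 5 with the highest CPM (at least 10 reads in every library of the higher group, no overlap), the 3 DEGs with the largest fold in each list and direction, and other list members with their values. Of 921 list entries 919 had a row. Alternatives were DESeq2 1.42.0, limma 3.58.1 (voom), RLE factors, other filters, other rows per gene, a replicate block, all 12 libraries in the fit, and leaving out each library. Same-numbered libraries of the LPS+ groups deviated with correlations of 0.0769, 0.105 and 0.254, not all above the 0.1 set for pairs, so that numbers were not used as pairs. Promoters and gene positions came from RefSeq (GRCm38.p6), and motifs were searched on both strands of the 250 bases before the start; a promoter was in the table for 72.8% of the genes tested, so shares over all DEGs are void. Some genes of the lists are not reported here by name.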

Additional observations from a re-analysis of the deposited data

Results flagged for a closer look

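The LPS+ and the LPS- contrast were found to differ by a test of the difference itself (LPS+ minus LPS- contrast, edgeR over 12 libraries) for 104 genes in the higher and 60 in the lower direction. The list genes among them were, on the log2 scale, Sesn1 (3.28), Bcl2 (2.71), Scd2 (2.59), Cd300lb (1.99), Mcm3 (1.41), Gmnn (1.32) and Pold1 (1.16) in the higher direction, and Pfkfb3 (-3.53), Klf4 (-2.64), Sesn3 (-2.23), Tnfsf9 (-2.10), Il15ra (-2.07), Junb (-1.56), Tlr3 (-1.54), Dusp16 (-1.44), Rbl1 (-1.40), Stat3 (-1.34) and Tnip2 (-1.21) in the lower direction. With the headings exchanged these are differences in the LPS response between the 2 genotypes, and as headed they are differences of the genotype effect between LPS and no LPS. The LPS- libraries varied more, with a biological coefficient of variation of 37.4% and 35% against 8.52% and 8.73%, and the part of this in the calls was not tested.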

How the results depend on the processing

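The 1572 genes called higher and 1589 lower kept within 1.5 times of these counts under DESeq2, voom, RLE factors, other filters, other transcript rows and an adjusted p of 0.05, and were 1522 to 1568 higher and 1474 to 1597 lower with 1 LPS+ library left out. No DEG was called in the opposite direction under any of these. With all 12 libraries in the fit 858 genes and 74 list genes were called lower, and the same sign in the LPS- contrast was at 99.1% of higher and 98.4% of lower DEGs. The cause was not tested. With the replicate number as a block 1600 were higher and 1646 lower, and the difference between the contrasts was called for 76 and 53 genes. Whether same numbers mark paired libraries is not given in the sources used here, so the block is an alternative only. Across the 2 LPS+ groups, the deviations of each library from its group mean correlated best with those of its own number, at 0.0769 to 0.254. Among the named genes in the LPS+ contrast the block changed the call of Mrc1 only. It kept 10 of the 18 list genes with a called difference.

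The difference between the contrasts (104 higher, 60 lower) moved most. It was called for 348 and 296 genes by DESeq2, 69 and 95 by voom, 64 and 80 with RLE factors, 117 and 97 with at least 10 reads in every library, and 409 and 220 at an adjusted p of 0.05. Leaving out 1 library gave 4 to 169 higher and 6 to 137 lower. Without LPS- tlr4f/f-lysM-cre replicate 3 the counts were 169 and 137, and without LPS- tlr4f/f replicate 1 they were 64 and 35. Of 132 named genes in the LPS+ contrast, the values without a call changed sign for Fos (-0.24 to 0.14 with 1 library left out) and Irf8 (-0.13 to 0.36). Over all settings the named genes lost the call 27 times and gained it 4 times, and 22 counts per list moved by over 1.5 times. For genes at or under the floor, depth allows a lower bound of the fold.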

Other observations

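Several runs of neighbouring genes moved in 1 direction. These were singled out after their values were seen. Among 13312 tested genes with a position, 64 runs of 4 or more adjacent tested genes were all DEGs in the same direction, 51 of them higher and 13 lower. The longest, of 14 genes at chr19:10924519-11604804, holds the Ms4a family of membrane proteins (Ms4a4a, Ms4a4b, Ms4a4c, Ms4a4d, Ms4a6b, Ms4a6c, Ms4a6d, Ms4a7 and Ms4a14), with log2 fold changes of 1.48 to 5.65. A run of 8 at chr5:90714987-91021368 holds the chemokine genes Cxcl5, Ppbp, Pf4, Cxcl3, Cxcl1 and Cxcl2 (1.08 to 9.82). Runs of 7 hold Trim30a, Trim30b, Trim30c, Trim30d, Trim12c and Trim34b on chromosome 7 (1.44 to 5.91), Phf11a, Phf11b, Phf11c and Phf11d on chromosome 14 (1.89 to 3.45), and the formyl peptide receptors Fpr1 and Fpr2 with Has1 on chromosome 17 (1.03 to 7.89). The longest run that was lower, of 6 genes at chr11:114675468-114934371, includes Cd300a and Cd300lb (falls of 1.01 to 4.92). Acod1 at chromosome 14 lies among 6 such genes, with uncharacterised transcripts on both sides (1.80 to 9.29). Members of 1 family share sequence, and without stated strand the reads of overlapping transcripts cannot be told apart.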
